A study of Mus musculus with 6 samples.

Results

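The 9 genes described here were listed as macrophage lineage transcription factors: Spi1, Cebpa, Cebpb, Cebpd, Irf8, Maf, Batf3, Tfec and Mitf. The list is broader than its name, since Batf3 is required for a dendritic cell subset. Probes of the 9 genes were found among the non-control probes by RefSeq accession, or by current gene symbol where no accession matched. The array names 7 of the genes by these symbols, and Spi1 and Tfec were found through their RefSeq accessions under the older names Sfpi1 and Tcfec. In all, 11 probes represented the 9 genes, with 2 probes each for Maf and Mitf, among 55681 non-control probes. All 11 were well above background on all 6 arrays, so all 9 genes were among the 19575 features tested and none entered through 1 group alone.

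The cells were macrophages grown from bone marrow of C57BL/6 mice for 7 d in RPMI 1640 with 10% fetal bovine serum and 20% L929-conditioned medium, which supplies the growth factor M-CSF. The control group (BMDM_CON, 3 samples) received control treatment for 6 h, and the ADP group (BMDM_ADP, 3 samples) received 100 µM ADP, a nucleotide that damaged and activated cells release, for 6 h. Both groups were thus cultured with M-CSF, and genetic changes, age and sex of the mice were not given in the sources used here. Per the design text, the 3 experiments were independent and used different donor mice, and RNA of every sample was read on a separate one-colour Agilent array, so p-values measure the spread between these samples. The comparison asks whether exposure to ADP was accompanied by a difference in the transcripts that encode the lineage factors.

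PU.1, encoded by Spi1, opens myeloid enhancers, and C/EBP proteins bind beside it to set the macrophage and granulocyte programmes. IRF8 has weak binding of its own and acts with partners such as PU.1 or BATF proteins to favour the monocyte and dendritic lineages, while MAF family proteins support the differentiated macrophage state. MITF and TFEC belong to the MiT/TFE family, which regulates lysosomal and osteoclast genes, and both can form dimers within that family. TFEC is expressed mainly in macrophages.

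Levels below are log2 processed signals minus the log2 of the 75th percentile over that array's non-control probes, and differences are ADP minus control on that log2 scale. A level is comparable between arrays for 1 probe and not between probes. Controls 1 and 2 shared slide 1 with ADP 1, while control 3 shared slide 2 with the other ADP arrays, and the 2 slides were scanned separately. Principal component 1 (44.9% of the variance) split the arrays by slide and component 2 (31.2%) by group. Between 50.3% and 51.9% of non-control spots were well above background, and no spot was saturated. Precision is limited by the number of arrays, 3 per group, and an exact permutation test of 3 against 3 arrays cannot go below p = 0.1.

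Transcripts of Batf3, Mitf, Cebpa and Cebpd read lower on every ADP array than on every control array. They were lower by 0.81, 0.78, 0.47 and 0.31 log2 units in the mean. For Mitf this was the brighter of its 2 probes, while the groups of the other probe overlapped. Tfec read higher in the mean by 0.50. Spi1, Cebpb, Irf8 and Maf differed by 0.05 to 0.14 log2 units in the mean, with intervals that include 0. No member passed the test: with limma, none of the 9 reached a Benjamini-Hochberg adjusted p under 0.05 (0 of 9), where 0 of all 19575 features (0%) did. At an unadjusted p under 0.05 there were 5 of the 9 members, 4 lower (Batf3, Cebpa, Mitf and Cebpd) and 1 higher (Tfec), where 12.4% of all features had such a p, 5.58% lower and 6.78% higher. The groups did not overlap for the same 4 lower members, against 9.15% of all features that were lower without overlap. The median difference of the 9 members was -0.14, and 8 of 9 were below 0. Over all features it was 0.017, with 9173 of 19575 below 0.

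**Figure D1:**
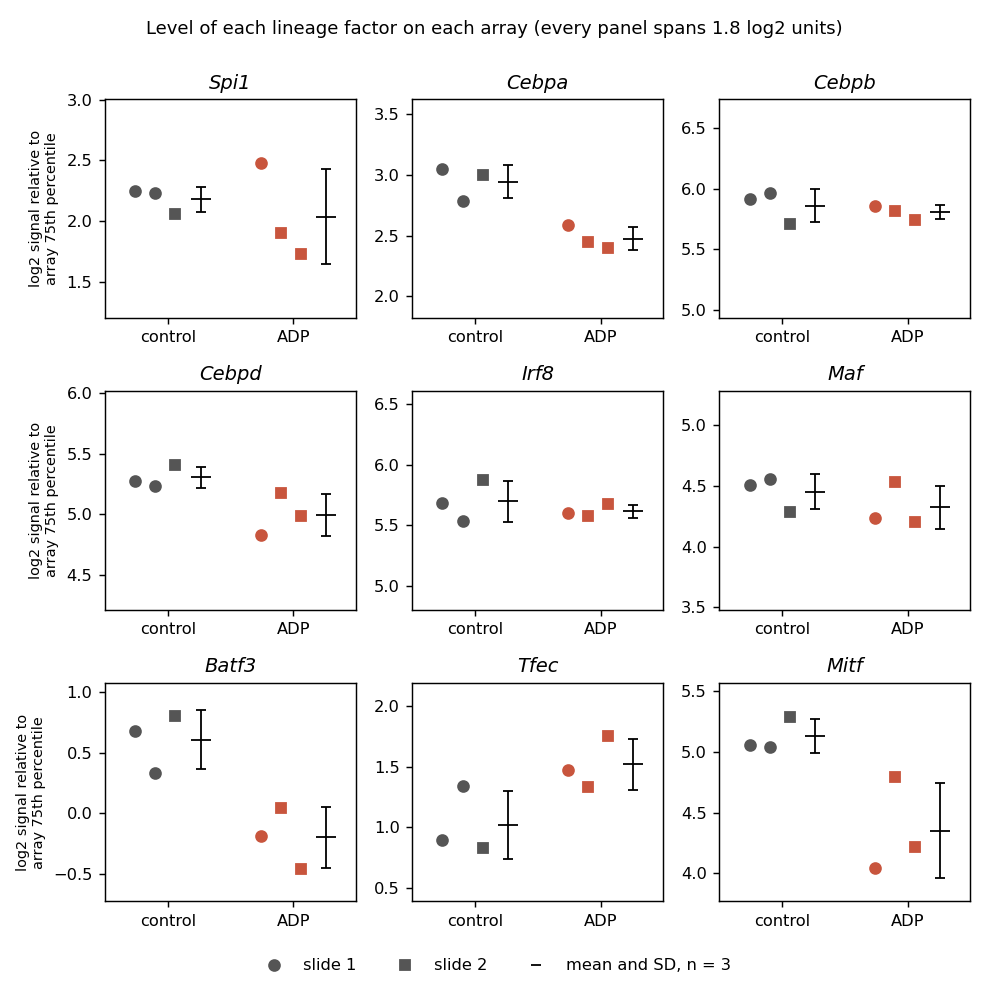
Log2 signal relative to the array's 75th percentile for each of the 9 genes on each of the 6 arrays, in control and ADP groups, with circles for slide 1, squares for slide 2, and the mean and SD of 3 arrays beside the points. The control and ADP points do not overlap for Cebpa, Cebpd, Batf3 and the brighter Mitf probe shown here. They overlap for the other genes, for Tfec by less than 0.01.

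Spi1 encodes PU.1, and the file places its 60-base probe between positions 90939665 and 90953452 of chromosome 2 (mouse build mm9). Its level was 2.25, 2.23 and 2.06 in controls 1 to 3 and 2.48, 1.90 and 1.73 in ADP 1 to 3. The ADP arrays lay on both sides of the controls, with the array on slide 1 above all of them and those on slide 2 below. The means were 2.18 ± 0.10 and 2.04 ± 0.39 (SD, n = 3 each), a difference of -0.14 ± 0.20 (SE; 95% interval -0.63 to 0.35; limma adjusted p = 0.813). Within slides 1 and 2 the difference was 0.24 and -0.25, so its sign depended on the slide.

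The C/EBP factors did not read alike. Cebpa, which encodes the factor needed for early granulocyte and monocyte commitment, was measured at 3.05, 2.79 and 3.00 in controls and at 2.58, 2.44 and 2.40 with ADP (probe on chromosome 7, 35906517 to 35906576, mm9). All ADP arrays were lower than all controls, and both groups were narrow. The means were 2.95 ± 0.14 and 2.47 ± 0.10 (SD, n = 3 each), and the difference of -0.47 ± 0.12 (SE; 95% interval -0.76 to -0.18), equal to a 1.39-fold lower signal, did not pass (limma unadjusted p = 0.00639, adjusted p = 0.259). It was -0.33 and -0.58 within slides 1 and 2.

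Cebpd encodes C/EBP delta, an early-response factor of inflammatory stimulation. Its level was 5.28, 5.24 and 5.40 in controls and 4.82, 5.17 and 4.99 with ADP (chromosome 16, 15888459 to 15888518, mm9). The groups did not overlap, but the highest ADP array was only 0.063 below the lowest control. The difference was -0.31 ± 0.13 (SE; 95% interval -0.61 to -0.0045; limma adjusted p = 0.395), and -0.43 and -0.32 within slides 1 and 2. Cebpb, which encodes a C/EBP factor of macrophage activation, read 5.91, 5.96 and 5.71 in controls and 5.86, 5.82 and 5.75 with ADP (chromosome 2, 167515828 to 167515887, mm9). The ADP values lay within the range of the controls. The difference was -0.053 ± 0.11 (SE; 95% interval -0.32 to 0.22; limma adjusted p = 0.875), which leaves room for up to 0.32 log2 units lower or 0.22 higher.

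Among the partner factors, Batf3 had the smallest p of the 9 members. It encodes a small leucine-zipper protein that dimerises with JUN proteins and is required for a dendritic cell subset. Its level was 0.68, 0.33 and 0.80 in controls and -0.18, 0.04 and -0.46 with ADP (chromosome 1, 192932528 to 192932587, mm9). Every ADP array lay at least 0.29 below every control. The means were 0.61 ± 0.24 and -0.20 ± 0.25 (SD, n = 3 each), and the difference of -0.81 ± 0.18 (SE; 95% interval -1.24 to -0.37), a 1.75-fold lower signal, did not pass (limma unadjusted p = 0.00361, adjusted p = 0.259). It was -0.69 within slide 1 and -1.01 within slide 2.

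Irf8, whose product drives monocyte and dendritic commitment, read 5.68, 5.53 and 5.87 in controls and 5.60, 5.58 and 5.67 with ADP (chromosome 8, 123280324 to 123280383, mm9). The 3 ADP values lay inside the range of the controls. The difference was -0.082 ± 0.12 (SE; 95% interval -0.37 to 0.21; limma adjusted p = 0.823), with -0.011 within slide 1 and -0.25 within slide 2. Maf encodes c-MAF, a factor of IL-10 and complement gene expression in macrophages. Its brighter probe (chromosome 8, 118227736 to 118227795, mm9) read 4.51, 4.56 and 4.29 in controls and 4.24, 4.53 and 4.20 with ADP, and the groups overlapped. The difference was -0.13 ± 0.14 (SE; 95% interval -0.46 to 0.20; limma adjusted p = 0.757), and it changed sign between the slides, at -0.30 and 0.077. The second Maf probe (chromosome 8, 118207273 to 118207332) differed by -0.15 ± 0.17 (SE; limma adjusted p = 0.769 with each probe tested on its own) and its groups also overlapped.

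The MiT/TFE members differed in direction. Mitf, a regulator of osteoclast and lysosomal genes that is also active in macrophages, was measured by its brighter probe (chromosome 6, 97971229 to 97971288, mm9) at 5.05, 5.04 and 5.29 in controls and 4.05, 4.79 and 4.21 with ADP. The ADP arrays were all lower than the controls but spread widely, with ADP 2 nearest to them. The means were 5.13 ± 0.14 and 4.35 ± 0.39 (SD, n = 3 each), and the difference of -0.78 ± 0.21 (SE; 95% interval -1.28 to -0.28), a 1.72-fold lower signal, did not pass (limma unadjusted p = 0.00825, adjusted p = 0.271). It was -1.0 within slide 1 and -0.79 within slide 2. Tfec (chromosome 6, 16783720 to 16783779, mm9) read 0.90, 1.34 and 0.83 in controls and 1.47, 1.34 and 1.75 with ADP. ADP 2 and control 2 were nearly equal, and the other ADP arrays were above all controls. The difference was 0.50 ± 0.18 (SE; 95% interval 0.062 to 0.94; limma unadjusted p = 0.0311, adjusted p = 0.343), with 0.35 and 0.72 within slides 1 and 2. The opposite signs of Mitf and Tfec are given as values, since the contrast between the 2 genes was not tested.

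The second probe of Mitf lies 2728 bases closer to the gene's start (chromosome 6, 97968501 to 97968560, mm9) and is annotated to the same RefSeq transcripts, but its values were less regular. The probe nearer the start read 3.86, 3.07 and 3.45 in controls and 1.96, 3.65 and 3.08 with ADP. Its groups overlapped, with ADP 1 far below all other arrays and ADP 2 above 2 of the 3 controls. The difference was -0.56 ± 0.44 (SE; limma adjusted p = 0.679 with each probe tested on its own), and it was -1.51 within slide 1 but -0.080 within slide 2. Both probes were thus lower in the mean, while the absence of overlap held for the brighter probe alone. With the mean of both probes the difference of Mitf was -0.67 ± 0.31 (SE; limma adjusted p = 0.431).

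**Figure D2:**
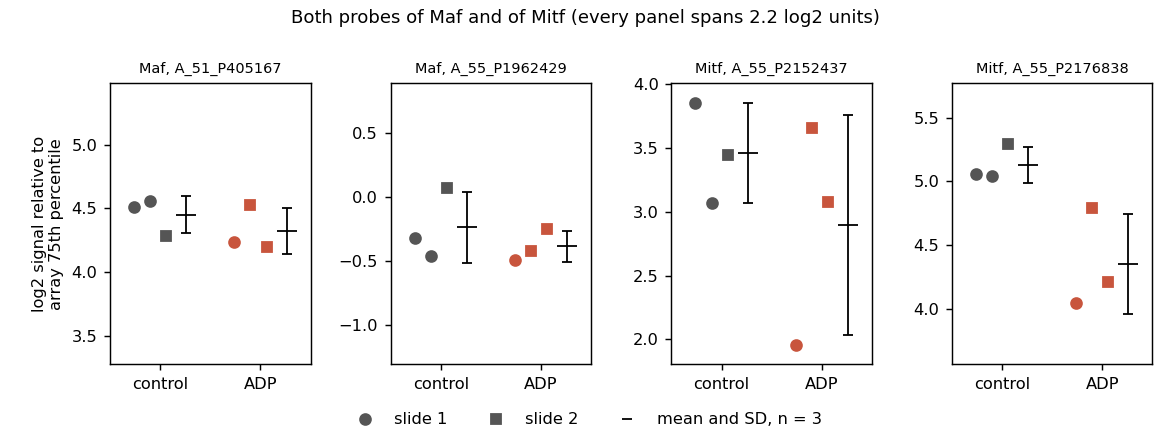
Log2 signal relative to the array's 75th percentile for both probes of Maf and both probes of Mitf, on each array by group, with circles for slide 1, squares for slide 2, and the mean and SD of 3 arrays. The groups overlap for both Maf probes and for the Mitf probe A_55_P2152437, where ADP 1 stands at 1.96, and do not overlap for the Mitf probe A_55_P2176838.

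Because the slides separated the arrays, the fit was repeated with the slide as a block. The difference became -0.90 ± 0.17 for Mitf, -0.85 ± 0.19 for Batf3, -0.46 ± 0.11 for Cebpa and -0.38 ± 0.09 for Cebpd (log2, SE), with limma adjusted p = 0.0726, 0.0786, 0.0911 and 0.0875. No member passed, and neither did any other feature (0%). At an unadjusted p under 0.05 there were 5 of 9 members in this fit, where 23.9% of all features had such a p. When the slide block was combined with intensity-trended, robust variances, 4 of 9 members passed, all lower: Mitf (limma adjusted p = 0.0208), Batf3 (0.0236), Cebpd (0.0239) and Cebpa (0.0300). That setting called 9.31% of all features, 4.81% lower and 4.50% higher, and it was chosen with earlier results of these data known. Over the 21 settings fitted, the adjusted p of these 4 genes reached 0.843 for Mitf, Batf3 and Cebpa and 0.893 for Cebpd. Tfec did not pass there (adjusted p = 0.0883; 0.0883 to 0.883 over the settings). The 5 members with an unadjusted p under 0.05 kept their sign in all 21 settings and within both slides. For the 4 lower members the groups did not overlap. Their sign within slides, with a block and with 1 array left out was therefore fixed in advance and adds no support. The ranges over the settings were -0.94 to -0.68 for Batf3, -0.999 to -0.63 for Mitf and -0.55 to -0.41 for Cebpa. They were -0.40 to -0.22 for Cebpd and 0.38 to 0.66 for Tfec. The sign of Spi1, Cebpb and Maf differed between the slides.

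**Figure D3:**
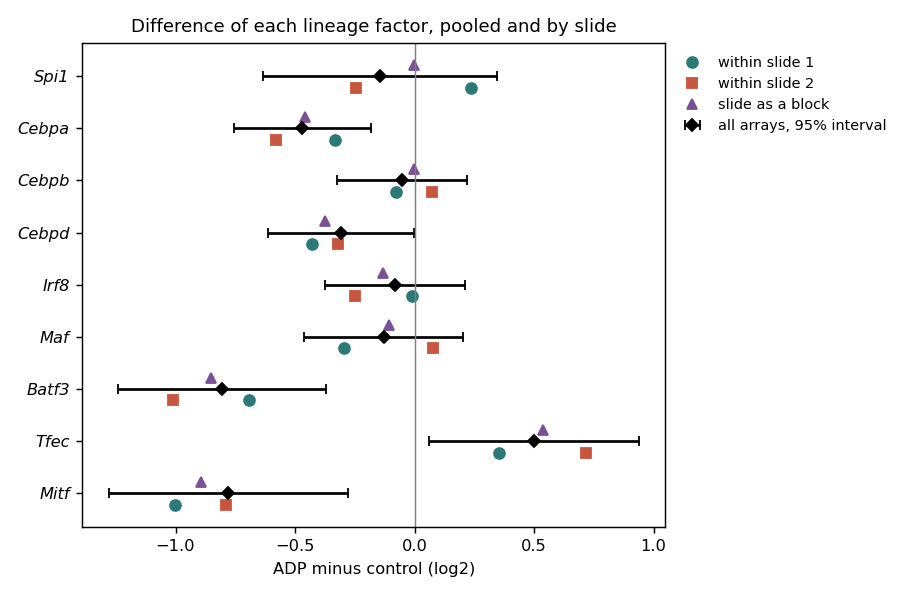
Difference between ADP and control means (log2) for each of the 9 genes, with diamonds and 95% intervals from limma on all arrays, triangles for the fit with the slide as a block, circles for the difference within slide 1 and squares for that within slide 2. The slide values lie on the same side of 0 for Cebpa, Cebpd, Irf8, Batf3, Tfec and Mitf and on opposite sides for Spi1, Cebpb and Maf.

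The regions before the starts of Batf3 and Mitf, the members with the largest differences, are shown from RefSeq (build GRCm38.p6) as the 250 bases before each annotated start. Windows were available here for 6 of the 9 genes, 9 windows in all, with 3 alternative starts for Mitf and 2 for Irf8. Capitals mark matches on either strand to any of 8 motifs: TGACG (part of a cyclic AMP response element), TGANTCA (AP-1), TTGCNNAA (C/EBP), GAGGAAG (PU.1), the composite PU.1 with IRF element, TGCTGA (part of a MAF element), CACGTG (E-box) and CATGTG (M-box).
Batf3 (chr1:191098164-191098413, + strand): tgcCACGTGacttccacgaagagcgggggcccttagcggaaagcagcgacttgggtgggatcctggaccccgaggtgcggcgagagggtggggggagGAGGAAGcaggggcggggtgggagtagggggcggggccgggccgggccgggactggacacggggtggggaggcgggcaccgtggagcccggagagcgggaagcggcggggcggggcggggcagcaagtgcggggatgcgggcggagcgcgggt
Mitf start 1 (chr6:97806808-97807057, + strand): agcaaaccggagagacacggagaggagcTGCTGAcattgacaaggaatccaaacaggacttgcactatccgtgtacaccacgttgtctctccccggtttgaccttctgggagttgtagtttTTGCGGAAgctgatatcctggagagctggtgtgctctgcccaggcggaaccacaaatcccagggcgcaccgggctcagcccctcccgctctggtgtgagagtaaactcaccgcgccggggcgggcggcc
Mitf start 2 (chr6:97929567-97929816, + strand): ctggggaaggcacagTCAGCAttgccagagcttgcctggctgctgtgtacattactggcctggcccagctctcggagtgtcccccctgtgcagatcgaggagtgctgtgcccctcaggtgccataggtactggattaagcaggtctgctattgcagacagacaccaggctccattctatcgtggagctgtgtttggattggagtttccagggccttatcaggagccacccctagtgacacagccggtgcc
Mitf start 3 (chr6:97991533-97991782, + strand): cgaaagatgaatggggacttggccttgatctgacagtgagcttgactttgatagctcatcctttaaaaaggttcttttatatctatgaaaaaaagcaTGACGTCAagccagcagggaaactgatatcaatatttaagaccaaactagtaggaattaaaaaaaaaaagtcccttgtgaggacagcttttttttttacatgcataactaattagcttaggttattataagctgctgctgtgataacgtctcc
The Batf3 window holds an E-box match, found in 6.0% of 32851 windows of all genes, and a PU.1 match, found in 10.6%. The first Mitf window holds a MAF match (16.1% of windows) and a C/EBP match (9.6%), and the second a MAF match. The third holds 2 overlapping matches to TGACG, 1 on each strand, which together read TGACGTCA. At least 1 TGACG match is held by 17.8% of all windows, and the share that holds the joined stretch was not counted. The Cebpb window holds 3 matches to TGACG. Whether any match relates to a difference was not tested. The Cebpa and Tfec windows hold no match to the 8 motifs. AP-1 (6.7% of windows), PU.1 with IRF (2.3%) and M-box (12.3%) matches were in none of the 9 windows. Both Mitf probes are annotated to the same RefSeq transcripts, so which start was used was not measured.

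Other members of the same families were read from lists. None passed the test in any family, in either direction (limma, 0 higher and 0 lower, with 0% called among all features), so they are given as values. Of the ETS family, to which PU.1 belongs, 10 of 12 listed genes were measured, with a median difference of 0.11 and 6 above 0. Spic, which encodes a PU.1 relative of iron-recycling macrophages, differed by 0.99 ± 0.27 (log2, SE; limma adjusted p = 0.275), from 0.98 ± 0.54 in controls to 1.98 ± 0.15 with ADP (SD, n = 3 each), with 0.79 and 1.5 within slides 1 and 2. Ets2, a growth-factor-responsive ETS gene, differed by 0.36 ± 0.10 (limma adjusted p = 0.283). The groups of both genes did not overlap.

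The 4 other C/EBP genes showed small differences, at 0.16 ± 0.11 for Ddit3, which encodes the stress factor CHOP, -0.035 ± 0.10 for Cebpg, 0.045 ± 0.23 for Cebpz and -0.003 ± 0.17 for Cebpe (log2, SE). Cebpa and Cebpd thus had lower values than any other C/EBP gene measured, in difference and not in level, and a test of family members against each other was not made. Of the IRF family, 7 of 8 genes were measured, with a median of -0.089 and 6 below 0. Irf7, a type I interferon factor, differed by 0.27 ± 0.10 (limma adjusted p = 0.361), and Irf1, an interferon-gamma-responsive factor, by -0.41 ± 0.17 (limma adjusted p = 0.391). Neither pair of groups overlapped.

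Of the MAF family, 5 of 6 genes were measured, with a median of 0.004 and 3 above 0, and the smallest p values belonged to the small MAF genes Mafk and Mafg, at 0.20 ± 0.12 and 0.25 ± 0.15 (log2, SE). Batf and Batf2, relatives of Batf3, differed by -0.13 ± 0.17 and -0.42 ± 0.23. Tfe3 and Tfeb, relatives of Mitf and Tfec that control lysosomal genes, differed by 0.061 ± 0.10 and -0.25 ± 0.20. Batf2 was lower in both slides, at -0.41 and -0.78, but its groups overlapped, with control 1 inside the range of the ADP arrays.

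Among 19 other factors of myeloid cells, 15 were measured, with a median of -0.10 and 9 below 0. Of these 15, 4 lower and 2 higher had an unadjusted p under 0.05 in limma, where 5.58% and 6.78% of all features had one. Bach2, 1 of the 4 lower, differed by -0.71 ± 0.24 (log2, SE), or -0.18 with normexp background correction. Its probe was well above background on 3 controls but on 1 ADP array. It was thus tested only through the control group, where it read higher. Klf2, a factor that restrains myeloid activation, differed by -0.68 ± 0.18 (log2, SE; limma adjusted p = 0.271), and Pparg, a nuclear receptor of lipid handling, by -0.39 ± 0.11 (limma adjusted p = 0.276). Both read lower on every ADP array than on every control. Over all 45 measured relatives and other factors together, 19 were above 0 and 26 below, with a median of -0.035. The groups did not overlap for 7 higher and 7 lower, where 10.1% and 9.15% of all features were so. The 7 lower include Bach2, which entered only through the control group.

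**Figure D4:**
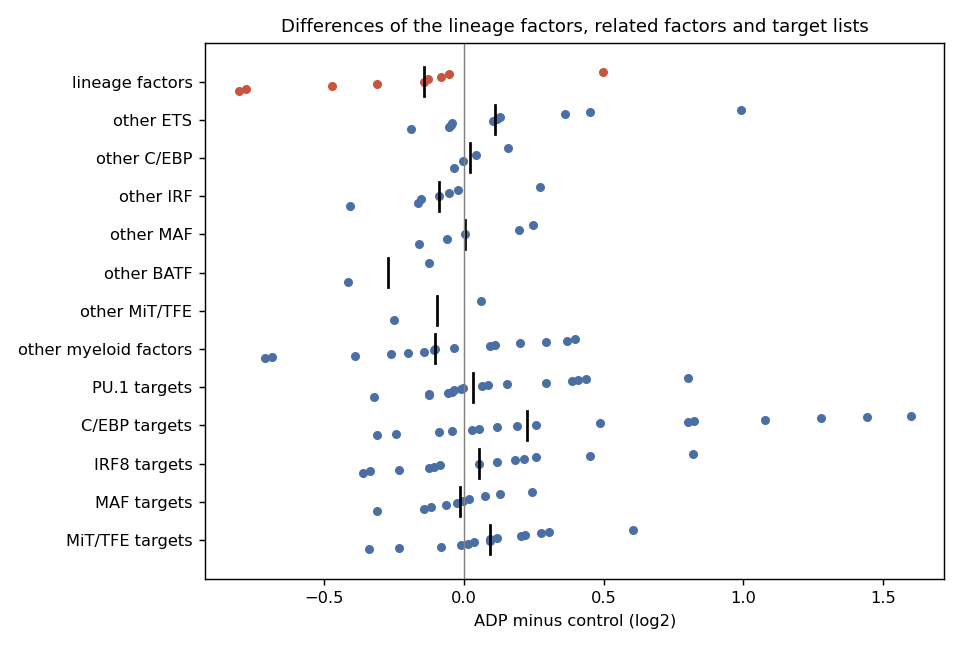
Difference between ADP and control means (log2) for the 9 lineage factors, the measured genes of related families and of other myeloid factors, and lists of known target genes, with 1 point per gene and a black bar at the median of each list. The median is -0.14 for the lineage factors and lies between -0.27 and 0.22 for the other lists.

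Known targets of the factors were listed from textbook knowledge, and some genes stand on more than 1 list. No target passed the test in either direction, over 63 of 66 listed targets that were measured. Of 16 PU.1 targets, 8 were above 0 and 8 below, with a median of 0.032. Cd14, the lipopolysaccharide co-receptor, differed by 0.80 ± 0.18 (log2, SE; limma adjusted p = 0.259) and Tlr4, its signalling partner, by 0.44 ± 0.14 (limma adjusted p = 0.314), while the M-CSF receptor gene Csf1r differed by 0.41 ± 0.31. The value of Csf1r was 0.144 with the slide as a block and with the mean of its probes, 0.199 with quantile normalization and 0.23 to 0.677 with 1 array left out (0.23 without ADP 3, 0.249 without control 1, 0.672 without ADP 1 and 0.677 without control 3).

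Of 16 C/EBP targets, 12 were above 0 and 4 below, and their median was 0.22, or 0.070 after blocking on the slide (0.21 and 0.13 within slides 1 and 2). Besides Cd14, the smallest p belonged to Csf3, which encodes granulocyte colony-stimulating factor, at 1.6 ± 0.41 (log2, SE; limma adjusted p = 0.259; 0.65 with normexp background correction). Only 2 of 3 controls but all 3 ADP arrays had its probe well above background, so it was tested only through the ADP group, where it read higher. Of 13 measured IRF8 targets, 7 were above 0 and 6 below, with a median of 0.054. Ctsc, which encodes cathepsin C, differed by -0.36 ± 0.12, and the phosphatase gene Ptpn13 by 0.82 ± 0.31, or 0.25 with normexp correction. Ptpn13 too had its probe well above background in only 2 of 3 controls and entered only through the ADP group.

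Of 10 measured MAF targets, 4 were above 0 and 6 below, with a median of -0.012. The smallest p values of the list belonged to Il10, at -0.31 ± 0.16, and the scavenger receptor gene Stab1, at -0.14 ± 0.16 (log2, SE). Of 14 MiT/TFE targets, 10 were above 0 and 4 below, with a median of 0.093. Hif1a, a hypoxia factor gene, differed by 0.61 ± 0.22 and the osteoclast protease gene Ctsk by 0.30 ± 0.12, and neither passed (limma adjusted p = 0.340 and 0.359).

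The genes most like the 2 members with the smallest p were found by Pearson correlation of log2 levels over the 6 arrays, as a description. For Batf3 they were Pigz, Timeless and Acat1 (r = 0.998, 0.995 and 0.995), which differed by -0.49, -0.73 and -0.58. For Cebpa they were Rhob, Pparg and Zbtb4 (r = 0.996 each), which differed by -0.37, -0.39 and -0.27. The 6 points share their slides and groups, and the highest correlations among all named features were taken.

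The labelled cell type was checked on its markers. All 12 macrophage markers were well above background on all 6 arrays, among them Csf1r, the surface receptor gene Adgre1 and Cd68, at 8.69 ± 0.47, 7.64 ± 0.05 and 3.48 ± 0.52 in controls (SD, n = 3). In this list Cd14 differed by 0.80, as above, while the fractalkine receptor gene Cx3cr1 differed by -1.09 ± 0.28 (log2, SE; limma adjusted p = 0.265), and no gene of the list passed. The B-cell gene Ms4a1, the T-cell genes Cd3d and Cd3g, the NK-cell gene Ncr1, the erythroid genes Klf1 and Alas2, the mast-cell and basophil genes Cpa3, Mcpt8 and Ms4a2, the neutrophil genes Ngp and Cxcr2 and the dendritic genes Xcr1 and Cd209a were well above background on no array. Other genes of these lists were detected on all 6 arrays: 5 of 8 neutrophil genes, 3 of 7 dendritic, 2 of 6 B-cell, 2 of 6 T- and NK-cell, 1 of 5 mast-cell and basophil and 0 of 4 erythroid genes. All 5 fibroblast genes, 2 of 4 megakaryocyte genes and 6 of 7 osteoclast genes were as well.

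Some summed marker signals, in multiples of the array's 75th percentile, moved with the groups. The neutrophil list, 8 of 9 genes on the array and led by S100a8, summed to 26.9 to 29.3 in controls and 31.7 to 38.7 with ADP. The osteoclast list, with all 7 genes on the array and led by Acp5, summed to 379 to 404 and 421 to 435. The B-cell list (6 of 6, led by Cd79b) summed to 6.81 to 9.88 and 5.96 to 6.49. The mast-cell and basophil list (5 of 5, led by Kit) summed to 0.246 to 0.300 and 0.148 to 0.191. Each sum mainly follows its brightest gene, so it does not show that a whole list moved. Acp5 differed by 0.12 ± 0.10 (log2, SE; limma adjusted p = 0.691). Of 6 osteoclast genes measured, 4 were above 0 and 2 below. Other lists overlapped between the groups, with 0.748 to 1.12 and 1.02 to 1.37 for 4 megakaryocyte genes, 15.0 to 16.4 and 15.8 to 17.3 for 5 fibroblast genes, 0.838 to 1.36 and 0.764 to 1.74 for 6 T- and NK-cell genes, and 0.0610 to 0.126 and 0.0860 to 0.101 for 4 of 5 erythroid genes. The macrophage list (12 of 12) also overlapped, at 1281 to 1730 in controls and 1538 to 2050 with ADP. Within slide 1 it summed to 1281 and 1351 in controls and 1538 with ADP. Within slide 2 it summed to 1730 in the control and 1844 and 2050 with ADP. The dendritic list (7 of 7), led by Siglech, followed the slide, with 44.3 to 53.6 on slide 1 and 168 to 190 on slide 2. By gene, the smallest p values belonged to S100a8 and Mpo (0.33 ± 0.12 and 0.49 ± 0.25), Dcstamp and Mmp9 (0.57 ± 0.13 and -0.47 ± 0.15), Cd79b and Cd79a (-0.35 ± 0.16 and 0.42 ± 0.41), Kit (-0.70 ± 0.22), Ccr7 and Siglech (1.02 ± 0.34 and 0.67 ± 0.73), Lck and Cd3e (0.32 ± 0.15 and 0.21 ± 0.39), Ppbp and Gp9 (0.26 ± 0.21 and -0.069 ± 0.20), and Dcn and Pdgfrb (0.29 ± 0.23 and -0.13 ± 0.11) (log2, SE). With normexp correction the difference was 0.185 for Mpo, 0.634 for Ccr7, 0.166 for Lck, -0.348 for Kit, -0.011 for Gp9 and 0.064 for Cd79a. With the slide as a block it was 0.019 for Siglech, -0.133 for Cd3e, 0.136 for Cd79a, -0.148 for Gp9, 0.42 for Ppbp and 0.473 for Dcn. Cd79a had its probe well above background in only 2 of 3 controls, entered only through the ADP group, and ranged from 0.003 (without control 2) to 0.85 (without control 3) with 1 array left out. The part of these signals in the differences of the 9 factors was not tested, and in RNA of whole cultures fewer cells of a type and less RNA per cell cannot be told apart.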

How the data were processed

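RNA of 3 control and 3 ADP-exposed macrophage samples was measured on one-colour arrays, with groups taken from titles. The authors' deposited intensity of each spot came from Agilent Feature Extraction 10.7.1.1, per the file headers and the submitters' processing notes. Per the file headers, a fitted spatial surface was subtracted, multiplicative detrending was on and local background correction was off. Probe coordinates are on mm9. Values were not scaled between arrays. Flags other than intensity (well above background, saturated, outlier) were taken as deposited. The deposited value table of intensities matched the mean log2 processed signal within 0.01 for 99.8% to 99.9% of probes on each array, so its scale is that of the scanner files and it was not centred. Its column medians were 18.7, 20.3 and 22.0 (controls) and 20.7, 21.9 and 22.7 (ADP).

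Here, control spots and outlier spots were left out, spots of a probe averaged, and log2 signals taken relative to the 75th percentile. Probes had to be well above background throughout 1 group or both (26587 of 55681 did), and each gene used its brightest probe. Names were updated through RefSeq accessions and synonyms (assembly GRCm38.p6): 26584 probes by accession, 2600 by current symbol, 492 by synonym, and 26005 kept the file's name. Groups were compared with limma 3.58.1 in R 4.3.3 (lmFit, eBayes, two-sided, Benjamini-Hochberg over 19575 features, threshold 0.05). The fit was also run on simulated data. The planted differences were larger than those of the members, so that run does not cover differences of their size. Alternatives are given in the closing section.

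The members, lists and alternatives were chosen with earlier results of these data known. Named genes were all members, the 2 genes with the smallest p of each list, all of a family list under 5 genes, 3 macrophage markers, and the 3 genes most like each of 2 members. Promoter windows were read from RefSeq; a genome was not used here. Some marker genes and probe sequences are not reported here.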

Additional observations from a re-analysis of the deposited data

How the results depend on the processing

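Without a block limma called 0 features and 0 members. The slide as a block together with trended, robust variances called 1823 features and 4 members, and no other setting called a member or changed the count of features. The members' median was -0.14 on all arrays, -0.30 within slide 1, -0.25 within slide 2 and -0.23 to -0.11 with 1 array left out (-0.23 without ADP 2, -0.22 without ADP 1). Leaving out 1 array in turn gave a range that crossed 0 for Spi1 (-0.364 to 0.009, positive without ADP 3), Irf8 (-0.163 to 0.007, positive without control 3), Adgre1 (-0.134 to 0.025), Batf (-0.24 to 0.054), Cd3e (-0.047 to 0.582), Cebpe (-0.114 to 0.132), Cebpg (-0.069 to 0.012), Cebpz (-0.086 to 0.248) and Gp9 (-0.248 to 0.125). The sign also turned in the unscaled value table for Cebpb (0.011), Adgre1 (0.024), Cebpe (0.061) and Cebpg (0.029), and with the mean of probes for Adgre1 (0.151). With the slide as a block, alone or with trended, robust variances, it turned for Cd3e (-0.133) and Cebpz (-0.140), and with the slide block and quantile normalization for Cd3e (-0.133), Cebpz (-0.136), Siglech (-0.022) and Spi1 (0.022). The causes were not tested. The replicate block called 0 features and 0 members. Deviations of samples with the same number correlated at 0.423, -0.398 and 0.431 across features. All control and ADP pairs on the same slide correlated positively and all pairs on different slides negatively. Control 2 and ADP 2 were on different slides. These correlations follow the slide and cannot show whether samples with the same number belong together. The main fit did not pair the samples. With 3 arrays per group, differences near the size of those seen may miss the threshold.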
